A study of Mus musculus with 6 samples.

Results

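Smooth muscle fills the middle layer of the aorta, and 32 genes of its contractile machinery were followed here in aged C57BL/6 mice. They were chosen by name, as genes of the contractile apparatus, of the dense bodies that anchor it and of the control of myosin phosphatase. All 32 were found among the 8690 gene names of the table, and all 32 are among the 8605 genes tested. Total RNA was sequenced from the aortas of 3 Sirt2-KO mice (replicates 4, 7 and 8) and 3 WT mice (replicates 2, 4 and 8). The labels call all the mice aged, give no age and do not say how Sirt2 was removed or in which cells. Sirt2 encodes an NAD-dependent deacetylase of the cytoplasm, and the comparison asks how the aged aorta differs without it.

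A smooth muscle cell shortens when myosin pulls on actin filaments that are tied to dense bodies and to adhesions at the cell surface. Calcium and calmodulin switch on myosin light chain kinase, which phosphorylates the regulatory light chain and starts contraction. Myosin phosphatase removes that phosphate again, and the kinases encoded by Rock1 and Rock2 hold the phosphatase back. Transcription of many of these genes is driven by serum response factor with its cofactor myocardin, which act through a DNA element called the CArG box.

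Exact CArG boxes were looked for because many of these genes are known to be driven through this element. Actg2, Myh11, Myocd, Rock1 and Tagln had no RefSeq promoter window and were not searched. The other 27 of the 32 genes had a window, which spans 250 bases before to 50 bases after a transcription start. A box was found in 4 of these 27 (14.8%), against 1.85% of the 6312 tested genes with a window. The search took both strands, and because the element reads as the same pattern on either strand, each box was counted once. The 4 stretches are shown 5′ to 3′ on the strand of the gene, with the box in capitals.
Ldb3: gggttacagtCCATTTATGGgcgcagcaag
Myl6: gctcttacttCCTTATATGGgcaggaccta
Myl9: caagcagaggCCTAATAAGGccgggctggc
Vcl: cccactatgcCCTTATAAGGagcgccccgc
In build GRCm38.p6 the Ldb3 stretch is chr14:34588697-34588726 on the minus strand, and its box begins 35 or 109 bases upstream of the 2 annotated starts. The Myl6 stretch is chr10:128493040-128493069 on the minus strand, with the box 50 bases upstream. The Myl9 stretch is chr2:156775293-156775322 on the plus strand, with the box 161 bases upstream. The Vcl stretch is chr14:20929161-20929190 on the plus strand, with the box 227 bases upstream. The log2 difference between genotypes was -0.91 for Ldb3 and for Vcl, 0.02 for Myl6 and 0.07 for Myl9, and none of the 4 was called.

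Levels are FPKM values, which scale fragments by transcript length and library size, and all rows of a gene were added up. Sirt2 itself was listed at 2.56, 3.32 and 2.23 FPKM in Sirt2-KO aortas, against 26.5, 34.1 and 49.2 FPKM in WT aortas (limma adjusted p = 0.00156). The table holds no counts, so the depth of each library is unknown. Genotype differences are given as the difference in log2(FPKM + 1), Sirt2-KO minus WT, from limma, with p-values adjusted across the 8605 genes by Benjamini-Hochberg, and a gene was called at an adjusted p under 0.05. A pseudocount of 1 makes such a difference understate the change of low genes. In whole-tissue RNA, fewer smooth muscle cells and less RNA per smooth muscle cell cannot be told apart.

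The contractile machinery was abundant in every aorta, and the share of RNA it took overlapped between genotypes. The 32 genes together made up 6.82%, 5.50% and 4.44% of the listed FPKM in Sirt2-KO replicates 4, 7 and 8, against 7.77%, 4.99% and 8.74% in WT replicates 2, 4 and 8. WT replicate 4 stood apart from the other WT aortas, and the Sirt2-KO aortas were graded, with replicate 7 between replicates 4 and 8. Within WT, replicate 4 had the lowest value in 29 of 32 genes and replicate 8 the highest in 29. Within Sirt2-KO, replicate 8 had the lowest value in 28 genes and replicate 4 the highest in 27. WT replicate 4 also held heart muscle RNA: 7 heart markers, led by Tnnt2 and Actc1, summed to 499.9 FPKM there, against 67.8, 64.1 and 67.8 FPKM in Sirt2-KO and 56.6 and 52.9 FPKM in the other WT aortas.

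**Figure D1:**
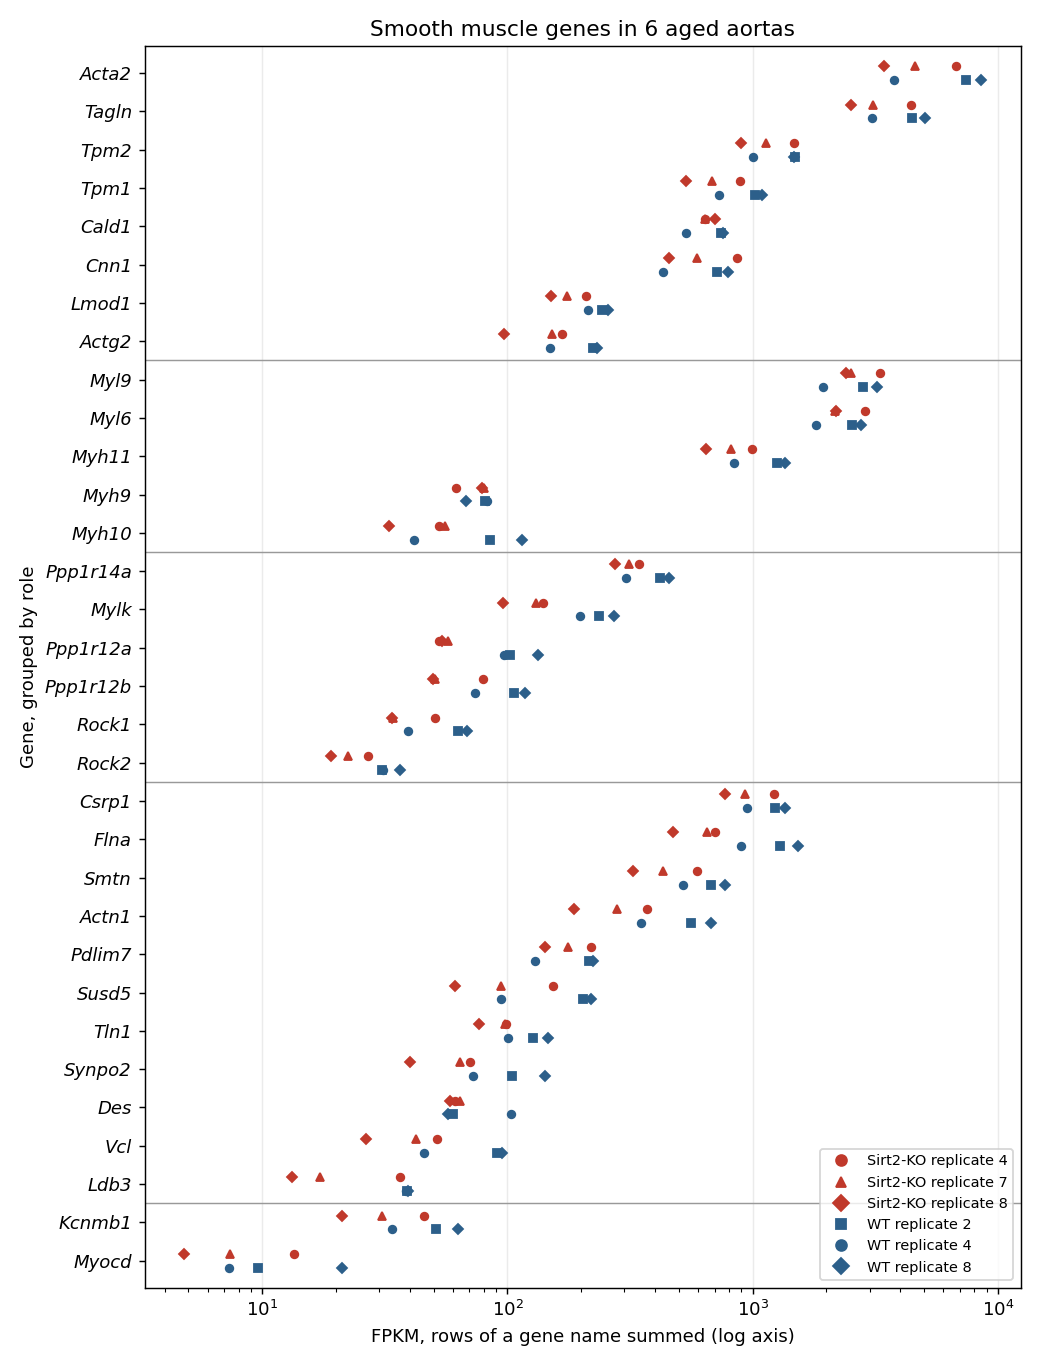
Level of each of the 32 smooth muscle genes in each aorta, in FPKM on a log axis, with Sirt2-KO aortas (red) above WT aortas (blue) and 1 marker shape per replicate number. Acta2 and Tagln lie highest and Myocd lowest, WT replicate 4 (blue circles) usually lies left of the other WT aortas, and the genotypes stand clear of each other in 8 genes.

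Of the 32 genes, 30 had a negative difference and 2 a positive one, with a median of -0.48 against -0.08 over all tested genes. A difference below 0 was found in 57.9% of all tested genes. After adjustment 1 gene was called, Ppp1r12a, which fell, and none was called higher; over all tested genes 0.616% were called lower and 2.29% higher, 2.91% together. At an unadjusted p under 0.05 limma gave 11 of the 32, all lower, where 12.4% of all tested genes were lower at that level and 24.8% were lower or higher. The 3 Sirt2-KO values all lay below the 3 WT values in 8 of 32 genes, and above them in 0, against 17.3% and 16.0% of all tested genes. Leaving out an aorta can only keep or raise this count. It stayed at 8 without Sirt2-KO replicate 7, Sirt2-KO replicate 8 or WT replicate 2. The count was 24 of 32 without WT replicate 4, where 23.5% of all tested genes were lower and 23.8% higher without overlap. It was 18 of 32 without Sirt2-KO replicate 4, where 32.8% were lower and 21.0% higher. The median was -0.71 without WT replicate 4 and -0.64 without Sirt2-KO replicate 4, but -0.32 without Sirt2-KO replicate 8.

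**Figure D2:**
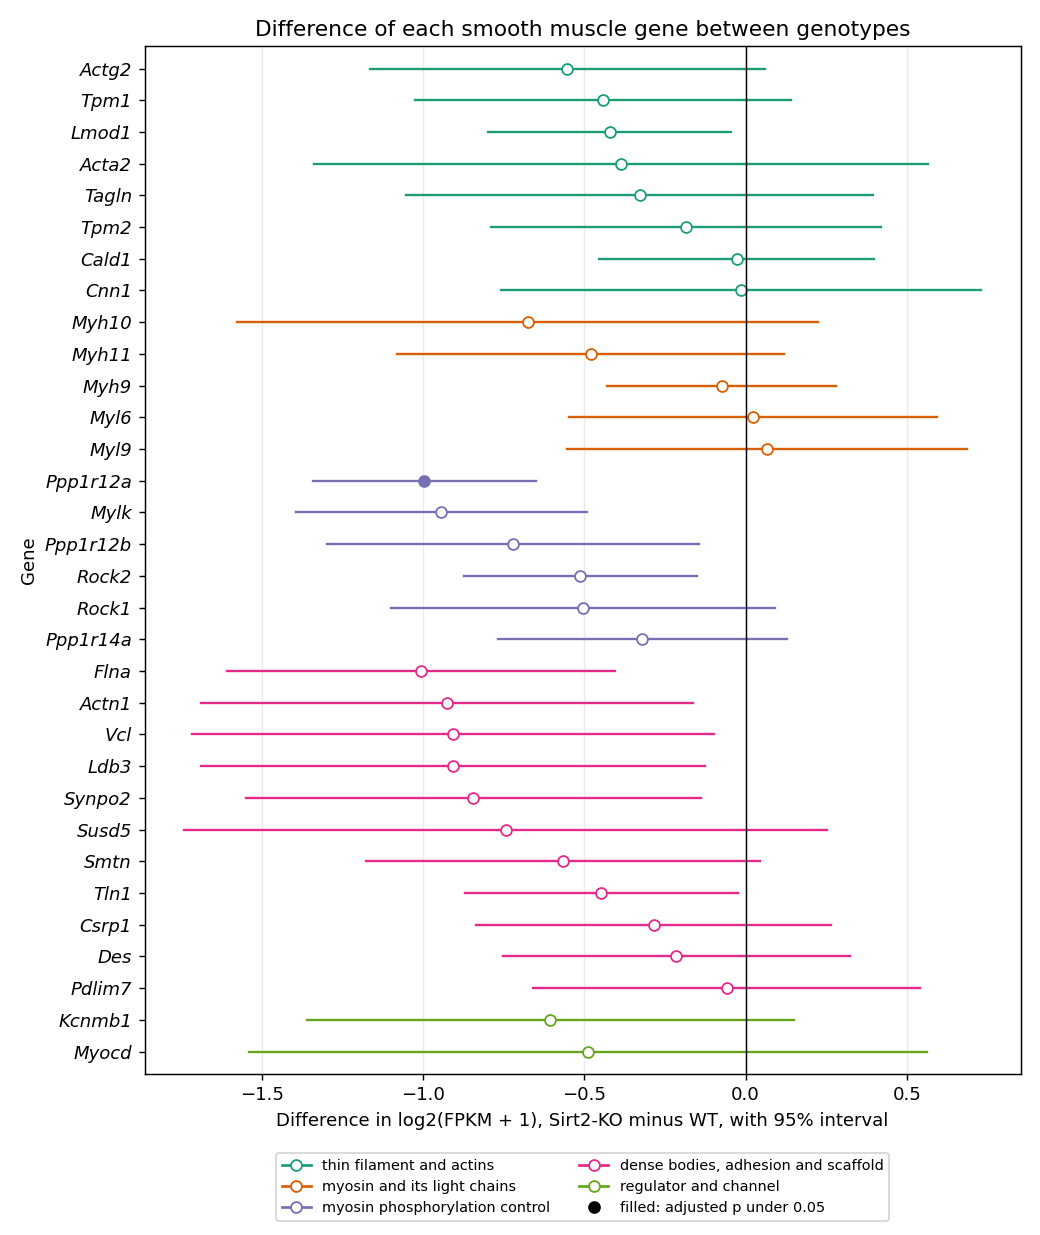
Difference in log2(FPKM + 1), Sirt2-KO minus WT, for each gene with its 95% interval from limma, grouped by role and coloured by it, and filled where the adjusted p is under 0.05. Ppp1r12a is the filled point at -0.996, Flna reaches -1.01 with a wider interval, and Myl6 and Myl9 are the 2 points right of 0.

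Genes that set the phosphorylation of myosin were all lower in mean in Sirt2-KO aortas, by a median difference of -0.62 over 6 genes. Ppp1r12a, which encodes the myosin-targeting subunit of myosin phosphatase, was at 52.7, 57.0 and 54.1 FPKM in Sirt2-KO and at 102.8, 96.7 and 133.3 FPKM in WT. No Sirt2-KO value came near the lowest WT value, and the Sirt2-KO aortas differed little from each other. Ppp1r12a fell by 0.996 on the log2 scale (SE 0.146, limma adjusted p = 0.0245), a mean 2.03-fold lower. It did not pass without Sirt2-KO replicate 7 (adjusted p = 0.116), Sirt2-KO replicate 8 (0.121) or WT replicate 2 (0.0721), with differences from -1.03 to -0.99 without either Sirt2-KO aorta and -1.04 without that WT aorta. With the replicate number as a block its adjusted p was 0.450. Only numbers 4 and 8 occur in both genotypes, so the block fit compares genotypes through the aortas of those numbers alone. That fit called 3 genes over the whole table, and Sirt2 itself missed the threshold (limma adjusted p = 0.0792). Missing the threshold with the block therefore says little about a single gene.

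Mylk, the myosin light chain kinase gene, acts opposite to the phosphatase and was lower in mean as well. It was at 139.9, 130.8 and 96.3 FPKM in Sirt2-KO, against 235.3, 198.0 and 272.4 FPKM in WT. The groups did not overlap, and the difference of -0.94 (SE 0.190) just missed the threshold (limma adjusted p = 0.0523). Mylk passed in 2 of 18 alternatives, with quantile normalization (adjusted p = 0.0487) and with arrayWeights (0.0174). Without Sirt2-KO replicate 7 or 8 its limma adjusted p was 0.161 and 0.173, and with the replicate block 0.579. Rock2, the gene of a kinase that inhibits the phosphatase, was at 26.9, 22.4 and 19.1 FPKM in Sirt2-KO and 30.7, 31.1 and 36.3 FPKM in WT, again without overlap (difference -0.51, limma adjusted p = 0.113). Its relative Rock1 overlapped, at 50.5, 34.1 and 33.8 FPKM in Sirt2-KO and 63.0, 39.3 and 68.6 FPKM in WT (difference -0.50, adjusted p = 0.255).

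The remaining phosphatase genes overlapped between genotypes. Ppp1r12b, a second targeting subunit of the phosphatase, was at 79.3, 50.8 and 49.8 FPKM in Sirt2-KO, against 106.5, 73.5 and 117.4 FPKM in WT (difference -0.72, limma adjusted p = 0.140). Sirt2-KO replicate 4 lay above WT replicate 4 there. Ppp1r14a, which encodes the phosphatase inhibitor CPI-17, was at 344.4, 313.6 and 274.5 FPKM in Sirt2-KO and 418.3, 304.1 and 454.2 FPKM in WT (difference -0.32, adjusted p = 0.317).

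The dense-body, adhesion and scaffold genes had the lowest median difference of the groups by role, -0.74 over 11 genes. All 11 differences were negative, and 0 were called by limma, with 6 at an unadjusted p under 0.05. At that level 12.4% of all tested genes were lower. Flna, the gene of filamin A, which links actin filaments to each other and to integrins, was at 700.1, 652.4 and 473.7 FPKM in Sirt2-KO. In WT it was at 1292, 894.3 and 1527 FPKM, so every WT aorta lay above every Sirt2-KO aorta. Its mean was 2.03-fold lower in Sirt2-KO (difference -1.01, SE 0.255, limma adjusted p = 0.0814). It was called in 2 of 18 alternatives, with quantile normalization (adjusted p = 0.0447) and arrayWeights (0.0268). Without Sirt2-KO replicate 7 or 8 its limma adjusted p was 0.213 and 0.269, and with the replicate block 0.657. The table lists 12 rows named Flna, without transcript identifiers. The most abundant row held 83.5% of the gene's sum, with a mean of 518 FPKM in Sirt2-KO and 1023 FPKM in WT.

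Actn1, which encodes the actin cross-linker alpha-actinin 1, was at 369.2, 280.1 and 187.2 FPKM in Sirt2-KO, against 559.6, 351.6 and 679.3 FPKM in WT (difference -0.93, limma adjusted p = 0.148). Vcl, the gene of the adhesion protein vinculin, was at 51.5, 42.4 and 26.4 FPKM in Sirt2-KO and 90.7, 45.9 and 95.1 FPKM in WT (difference -0.91, adjusted p = 0.168). In both genes WT replicate 4 lay below Sirt2-KO replicate 4, and the other WT aortas lay above all Sirt2-KO aortas. Tln1, the talin gene that couples integrins to actin, differed by -0.45 (adjusted p = 0.186) and had no overlap, although its highest Sirt2-KO value (98.3 FPKM) lay next to its lowest WT value (100.2 FPKM).

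Synpo2, which encodes an actin-bundling protein, was at 70.5, 63.8 and 39.9 FPKM in Sirt2-KO and 103.9, 72.0 and 142.0 FPKM in WT (difference -0.84, limma adjusted p = 0.152). Ldb3, a PDZ and LIM domain gene best known from the Z-discs of striated muscle, was at 36.4, 17.2 and 13.2 FPKM in Sirt2-KO. Its WT values of 38.8, 38.6 and 39.3 FPKM were nearly equal. The groups did not overlap. Ldb3 was called in 2 of 18 alternatives, among them without Sirt2-KO replicate 4 (difference -1.31, adjusted p = 0.0161, against -0.91 and 0.158 with it). Susd5 was at 153.9, 94.3 and 61.0 FPKM in Sirt2-KO and 202.9, 94.3 and 220.1 FPKM in WT (difference -0.74, adjusted p = 0.300).

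Smtn, the smoothelin gene of contractile smooth muscle, differed by -0.57 (limma adjusted p = 0.225), Csrp1, a LIM protein gene, by -0.28 (0.457) and Pdlim7, a PDZ and LIM domain scaffold gene, by -0.06 (0.896). All 3 overlapped between genotypes. Des, the gene of the intermediate filament desmin, which heart muscle also makes, was at 60.8, 63.7 and 58.3 FPKM in Sirt2-KO, against 60.1, 103.4 and 57.1 FPKM in WT. WT replicate 4, the aorta with the heart markers, was the one high value, and without it the difference of -0.21 became 0.06.

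Thin filament genes, which include the most abundant of the list, were all negative in difference (median -0.36 over 8 genes). None was called by limma, with 1 of 8 at an unadjusted p under 0.05, where 12.4% of all tested genes were lower. Acta2, the smooth muscle alpha-actin gene, was at 6731, 4595 and 3447 FPKM in Sirt2-KO and 7435, 3759 and 8512 FPKM in WT. The groups overlapped because WT replicate 4 lay below Sirt2-KO replicates 4 and 7. The difference was -0.39 with a 95% interval from -1.34 to 0.57 (adjusted p = 0.553), and -0.75 without WT replicate 4. Actg2, the gamma-actin of visceral smooth muscle, was at 166.2, 151.2 and 96.4 FPKM in Sirt2-KO, against 223.4, 148.7 and 231.8 FPKM in WT (difference -0.55, adjusted p = 0.237). Actin genes are close in sequence, so reads may be split between them.

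Lmod1, which encodes a leiomodin that nucleates actin filaments, was the only thin filament gene without overlap. It was at 209.1, 174.4 and 150.6 FPKM in Sirt2-KO and 241.9, 213.1 and 256.6 FPKM in WT (difference -0.42, limma adjusted p = 0.170). Tagln, the transgelin gene, an actin-binding marker of smooth muscle, was at 4437, 3085 and 2528 FPKM in Sirt2-KO, against 4455, 3054 and 5032 FPKM in WT (difference -0.33, adjusted p = 0.511).

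Calponin and caldesmon, which restrain actin and myosin in the resting cell, gave differences close to 0 as summed genes. Cnn1 was at 865.4, 595.2 and 456.2 FPKM in Sirt2-KO and 714.6, 429.0 and 790.3 FPKM in WT, a difference of -0.01 whose 95% interval, from -0.76 to 0.73, leaves room for a sizeable change either way. Its rows did not move together. The most abundant had means of 227 FPKM in Sirt2-KO and 306 FPKM in WT (difference -0.40 alone), and the next had 298 and 194 FPKM. The Cnn1 difference turned positive in 6 of 18 alternatives, with median-of-ratios scaling among them (0.05). Cald1 was at 636.2, 638.1 and 701.7 FPKM in Sirt2-KO, against 741.6, 536.9 and 757.6 FPKM in WT (difference -0.03, interval -0.45 to 0.40), and with that scaling was at 0.04.

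The tropomyosins Tpm1 and Tpm2, which line the actin filament, differed by -0.44 (limma adjusted p = 0.292) and -0.18 (0.653) as summed genes. Their single rows were less even than their sums. A row of Tpm2 was at 319.8 FPKM in Sirt2-KO replicate 8 and 404.7 FPKM in WT replicate 8, but at 11.2 and 9.22 FPKM in Sirt2-KO replicates 4 and 7 and at 28.8 and 21.3 FPKM in WT replicates 2 and 4. It was high in 1 aorta of each genotype. A row of Tpm1 was at 90.7 FPKM in WT replicate 4, the aorta with the heart markers, and at 0.556, 0.919 and 2.67 FPKM in Sirt2-KO and 3.09 and 0.819 FPKM in the other WT aortas.

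Of the 5 myosin chain genes 0 were called by limma, and 0 had an unadjusted p under 0.05. Myh11, the smooth muscle myosin heavy chain and the most specific marker of the cell type, was at 997.6, 817.2 and 645.2 FPKM in Sirt2-KO, against 1259, 837.3 and 1355 FPKM in WT. The groups overlapped through WT replicate 4 (difference -0.48, SE 0.254, limma adjusted p = 0.272). Myh10, a non-muscle heavy chain, was at 52.7, 55.7 and 33.0 FPKM in Sirt2-KO and 85.1, 41.4 and 114.6 FPKM in WT (difference -0.68, adjusted p = 0.298). Myh9, the other non-muscle chain listed here, which many cell types make, differed by -0.07 (interval -0.43 to 0.28).

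The light chains had the list's positive differences, both small beside their errors. Myl9, the regulatory light chain that the kinase phosphorylates, was at 3313, 2521 and 2409 FPKM in Sirt2-KO and 2827, 1935 and 3204 FPKM in WT. Its difference of 0.07 had a 95% interval from -0.56 to 0.69. Myl6, an essential light chain found in many cell types, differed by 0.02 (interval -0.55 to 0.60), and by -0.02 when every aorta was rescaled to the same sum.

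Myocd, the gene of the cofactor myocardin, was the lowest of the list, at 13.5, 7.41 and 4.81 FPKM in Sirt2-KO, against 9.62, 7.33 and 21.1 FPKM in WT (difference -0.49, limma adjusted p = 0.499). Its 3 rows went different ways. One was higher in every Sirt2-KO aorta, at 7.88, 5.10 and 2.79 FPKM against 1.18, 1.68 and 1.73 FPKM in WT. Another was lower, at 0.658, 0 and 0.224 FPKM in Sirt2-KO and 2.98, 3.64 and 12.2 FPKM in WT. Without transcript identifiers these rows cannot be tied to isoforms. Every row listed had a variance of at least 1.00003 between samples, so low rows that differ little may be missing. Kcnmb1, which encodes the beta 1 subunit of the large-conductance calcium-activated potassium channel, was at 45.6, 30.8 and 21.1 FPKM in Sirt2-KO and 50.9, 33.8 and 62.7 FPKM in WT (difference -0.61, adjusted p = 0.271).

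Each gene was also read against Myh11 of the same aorta, a choice made after the values were seen, to show which genes differed from the heavy chain between genotypes. Relative to Myh11, 6 of 31 genes were lower in every Sirt2-KO aorta than in every WT aorta, where 1.52% of all tested genes were. They were Flna, Mylk, Actn1, Vcl, Synpo2 and Ppp1r12b. The share of all tested genes is not a like background, because Myh11 was itself lower in mean (difference -0.48, against a median of -0.08). Without the ratio 17.3% of all tested genes were lower without overlap. Flna stood at 70.2, 79.8 and 73.4 FPKM per 100 FPKM of Myh11 in Sirt2-KO, against 102.6, 106.8 and 112.7 in WT. Mylk stood at 14.0, 16.0 and 14.9 per 100 FPKM of Myh11 in Sirt2-KO and 18.7, 23.6 and 20.1 in WT. WT replicate 4 had the lowest WT level of both genes. Its Flna ratio lay between those of the other WT aortas, and its Mylk ratio was the highest. The ratio of Ppp1r12a overlapped, at 5.28, 6.98 and 8.38 in Sirt2-KO and 8.16, 11.6 and 9.83 in WT.

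In the other direction, 7 of 31 genes were higher relative to Myh11 in every Sirt2-KO aorta (17.9% of all tested genes were, a share with the same limit). They were Myl9, Myl6, Cnn1, Pdlim7, Tpm2, Csrp1 and Tagln. Myl9 stood at 332.1, 308.5 and 373.3 FPKM per 100 FPKM of Myh11 in Sirt2-KO, against 224.5, 231.1 and 236.4 in WT. Cnn1 stood at 86.7, 72.8 and 70.7 in Sirt2-KO and 56.7, 51.2 and 58.3 in WT. For each of these 13 genes the exact two-sided permutation p was 0.1, the smallest that 3 against 3 allows. No ratio could pass a threshold of 0.05 in this design, and a ratio does not say which of its 2 genes differed. Acta2, at 674.7, 562.3 and 534.3 in Sirt2-KO and 590.3, 448.9 and 628.1 in WT, overlapped.

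**Figure D3:**
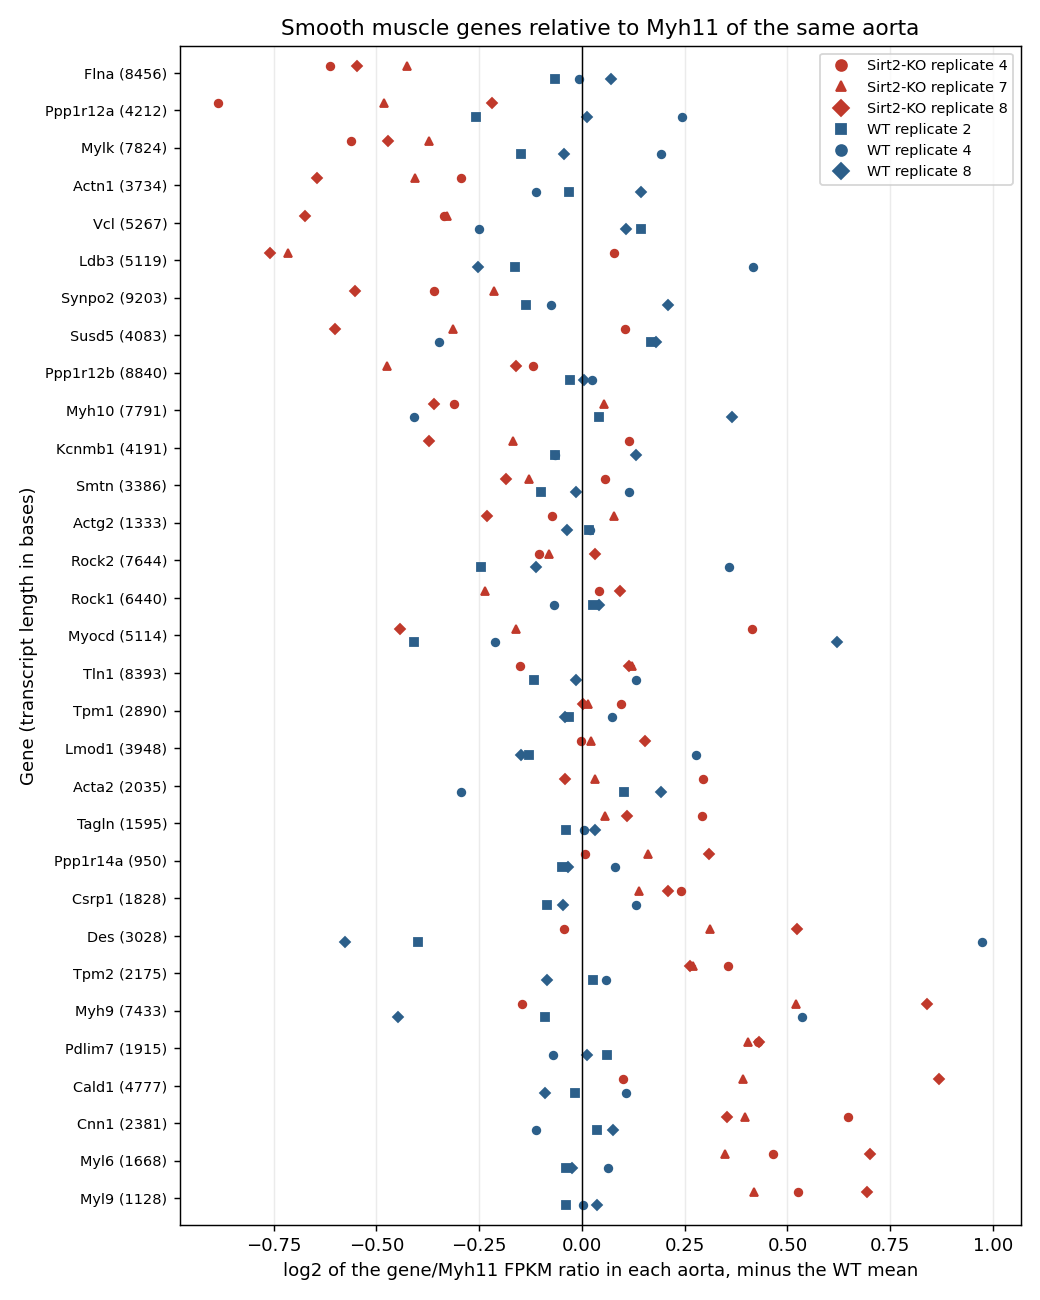
Ratio of each gene to Myh11 of the same aorta, as log2 minus the WT mean, with Sirt2-KO aortas (red) above WT aortas (blue) and the transcript length of each gene in brackets. Flna, Mylk, Actn1, Vcl, Synpo2 and Ppp1r12b have all red points left of all blue points, and Myl9, Myl6, Cnn1, Pdlim7, Tpm2, Csrp1 and Tagln have them right.

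The size of these differences went with transcript length. The genes lower relative to Myh11 have annotated coding transcripts of 3734 to 9203 bases at their longest, and those higher have 1128 to 2381 bases. Over the 32 genes the Spearman correlation between length and the log2 difference was -0.59, and over 7913 tested genes with a length it was -0.24, both across genes, which share libraries and are not independent. Tested genes of at most 2000 bases had a median difference of 0.04 and those above 8000 bases one of -0.31. The smooth muscle genes in these classes had medians of -0.28 (7 genes) and -0.78 (4 genes), and 28 of 32 lay below the median of tested genes in their own length class. The Spearman correlation between length and each aorta's deviation from the mean was -0.26, -0.06 and -0.21 in Sirt2-KO and 0.13, 0.08 and 0.29 in WT, so it had 1 sign in all aortas of a genotype.

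When this length trend was taken out of every aorta, a step added after seeing the data, Ppp1r12a still fell (difference -0.87, limma adjusted p = 0.0416). Mylk then differed by -0.66 (adjusted p = 0.0772) and Flna by -0.70 (0.127), and these 3 were the only ones of the 32 whose groups did not overlap (14.5% of all tested genes were lower and 17.8% higher without overlap). The median difference of the 32 genes was then -0.39, and single differences were -0.24 for Myh11 and -0.0014 for Myl9. Whether the trend arose in the tissue or in the RNA and library steps was not tested.

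**Figure D4:**
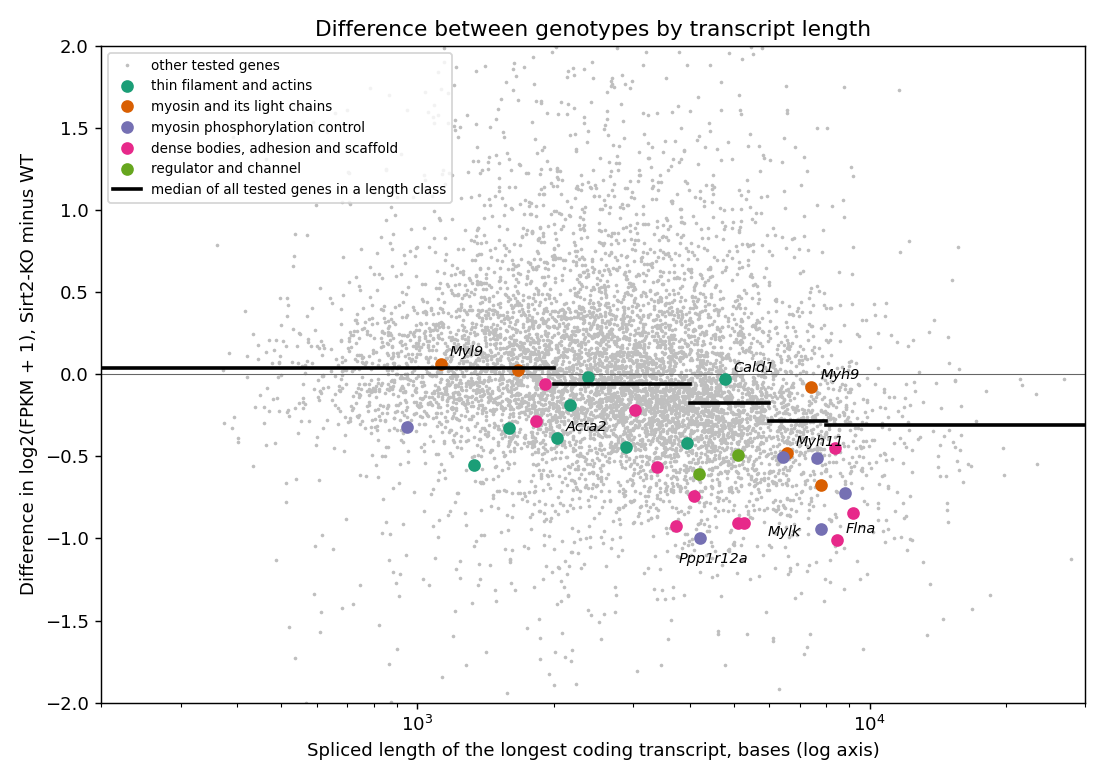
Difference in log2(FPKM + 1), Sirt2-KO minus WT, against the longest annotated coding transcript in bases on a log axis, with the 32 smooth muscle genes coloured by role, other tested genes in grey and black bars for the median of all tested genes in 5 length classes. The bars step down from 0.04 to -0.31, most coloured points lie below their bar, and 87 genes, none of them coloured, fall outside the axes.

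Genes that work beside the contractile machinery were read from 3 further lists. Of 24 tested genes of calcium handling and phosphorylation control, 2 fell and 0 rose by limma, with 11 lower and 3 higher at an unadjusted p under 0.05. Over all tested genes 0.616% were called lower and 2.29% higher, and 12.4% were lower and 12.4% higher at that unadjusted level. Atp2a2, the pump that returns calcium to the sarcoplasmic reticulum, was at 124.2, 96.1 and 84.7 FPKM in Sirt2-KO, against 208.0, 258.0 and 251.3 FPKM in WT (difference -1.24, adjusted p = 0.0228). Ryr2, a calcium release channel gene, was at 2.18, 1.58 and 1.23 FPKM in Sirt2-KO and 4.96, 7.36 and 6.15 FPKM in WT (difference -1.43, adjusted p = 0.0370). The groups lay apart in both, and both genes are also strongly made by heart muscle.

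Without WT replicate 4, the aorta with the heart markers, Atp2a2 passed (difference -1.18, limma adjusted p = 0.0458) and Ryr2 did not (difference -1.31, adjusted p = 0.0697). Atp2a2 missed the threshold without Sirt2-KO replicate 7 (0.118), Sirt2-KO replicate 8 (0.109), WT replicate 2 (0.0549) or WT replicate 8 (0.0501), with its highest row alone (0.165) and with the block (0.365). Ryr2 also missed it without Sirt2-KO replicate 7 (0.141), Sirt2-KO replicate 8 (0.147), WT replicate 2 (0.0901) or WT replicate 8 (0.118), with its highest row alone (0.386), with the block (0.531) and with the length trend removed (0.0772). Itpr1, the gene of an inositol trisphosphate receptor that releases stored calcium, was at 35.7, 30.2 and 26.8 FPKM in Sirt2-KO and 75.6, 48.7 and 103.6 FPKM in WT. It missed the threshold (difference -1.21, adjusted p = 0.0629) and passed it in 2 of 18 alternatives, among them without WT replicate 4 (0.0240).

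Of 31 tested genes of actin dynamics and focal adhesion 0 were called by limma, with 7 lower and 2 higher at an unadjusted p under 0.05. At that level 12.4% of all tested genes were lower and 12.4% higher. Those with the smallest p included Dmd, the dystrophin gene, with a difference of -0.90 (adjusted p = 0.0961), and Pdlim5, a PDZ and LIM domain gene, with -0.80 (adjusted p = 0.110). Of 8 tested genes around serum response factor 0 were called by limma and 1 was lower at an unadjusted p under 0.05. That was Prkg1, the kinase gene of the cGMP pathway (difference -0.94, adjusted p = 0.0889), while the transcription factor genes Elk4 (0.59, 0.204) and Klf4 (0.46, 0.210) had positive differences. Of these 8 genes 5 had a negative difference, and their median was -0.28.

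Markers of other cells of the vessel were read in the same way. Over all tested genes limma called 2.29% higher and 0.616% lower, and 12.4% were higher and 12.4% lower at an unadjusted p under 0.05. The 8 fibroblast markers, with Dcn and Col1a2 highest, summed to 1630, 2852 and 2358 FPKM in Sirt2-KO, against 856.3, 800.4 and 1019 FPKM in WT, and 3 of 8 were called higher. The 7 adipocyte markers found, with Cfd and Fabp4 highest, summed to 5374, 3988 and 5992 FPKM in Sirt2-KO and 2148, 2165 and 577.0 FPKM in WT, with 1 called higher. The 7 macrophage markers found, with C1qa and C1qb highest, summed to 221.0, 378.4 and 371.2 FPKM in Sirt2-KO and 85.3, 170.4 and 70.9 FPKM in WT, with 0 called by limma and 6 at an unadjusted p under 0.05. These 3 sums were higher in every Sirt2-KO aorta than in every WT aorta.

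The 8 endothelial markers, with Pecam1 and Egfl7 highest, summed to 301.1, 337.5 and 333.5 FPKM in Sirt2-KO and 385.6, 560.7 and 345.3 FPKM in WT (0 called by limma, 2 lower at an unadjusted p under 0.05). Of 8 skeletal muscle markers only 2 were in the table, Ckm and Acta1, too few to show skeletal muscle RNA. They summed to 2.68, 2.52 and 2.98 FPKM in Sirt2-KO and 9.54, 14.2 and 5.83 FPKM in WT. The highest sum was in WT replicate 4, the aorta with the heart markers. The endothelial and skeletal muscle sums were lower in every Sirt2-KO aorta than in every WT aorta. For endothelium the gap was narrow, 337.5 FPKM in Sirt2-KO replicate 7 against 345.3 FPKM in WT replicate 8. Pecam1 and Egfl7 lay apart between genotypes, while most of the other endothelial markers overlapped. The part of these other cells in the values of the smooth muscle genes was not tested.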

How the data were processed

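RNA of 6 aortas, 1 per mouse, was sequenced, and each title gave genotype and replicate number. The authors deposited FPKM values, per the file headers, in 14083 rows without transcript identifiers. The submitters' processing notes name Bowtie 0.12.2 and mm9 (quantifier and annotation: not given in the sources used here). Every row varied between samples, by a variance of at least 1.00003, so a gene's sum may lack transcripts of little variance, which are mostly low ones. The 39 rows with a date for a name were left out. FPKM values are relative within a library, so a large change in other genes can shift them.

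Rows were summed per name. Genes averaging at least 1 FPKM entered limma 3.58.1 in R 4.3.3 (lmFit, then eBayes with a trend), two-sided, on log2(FPKM + 1), a step tested on simulated data. No 2 samples had identical values. Alternatives were pseudocounts of 0.1 and 5, no filter and a minimum of 5 FPKM, the highest row per gene, 3 other scalings, no trend, arrayWeights, the replicate block and each aorta left out. Removing the length trend, by lowess, was added after seeing the data.

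The members and gene lists were chosen with earlier results of these data known. Named genes are Sirt2, all 32 members, the 3 genes of smallest p in each related list and the 2 highest markers of each other cell type. A gene of a related list and a marker list that this rule takes in are not reported here. Lengths are the longest coding transcript in GENCODE M21 (GRCm38), a build other than mm9, for 92.0% of tested genes. Folds are ratios of group means. Figures were drawn with matplotlib 3.10.9.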

Additional observations from a re-analysis of the deposited data

How the results depend on the processing

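In 18 alternatives the median difference of the 32 genes, -0.48 as reported, stayed negative, from -0.71 to -0.32. The median deviation of the 32 genes from their means was also taken in each aorta. Between aortas of one genotype it had an SD of 0.33 on the log2 scale, which is not the error of the difference between genotypes. The number of genes called over the whole table, 250 as reported, was 151 with the highest row per gene, 1114 with arrayWeights, 3 with the replicate number as a block, 158 with the length trend removed, and 28 to 342 with 1 aorta left out. Of the 32, 1 was called as reported, 3 with quantile normalization, 7 with arrayWeights, 0 with the replicate block and 0 to 2 with 1 aorta left out. Genes without overlap numbered 8 as reported, 5 with median-of-ratios scaling, 3 with the length trend removed and 8 to 24 with 1 aorta left out. Leaving out an aorta can only keep or raise that number.

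Of the 32 genes 25 kept the sign of their difference throughout. Cald1 turned to 0.16 with the highest row, 0.039 with median-of-ratios scaling, 0.067 with the block and 0.14 with the length trend removed. Cnn1 turned to 0.052 with that scaling and 0.11 with the block, and Pdlim7 to 0.0071 and 0.051. Myl6 turned to -0.018 with rescaling to an equal sum, -0.13 with arrayWeights and -0.032 with the length trend removed. Myl9 turned to -0.082 with arrayWeights and -0.0014 with the length trend removed, and Myh9 to 0.027 and 0.20. With 1 aorta left out the ranges were -0.284 to 0.203 for Cnn1, -0.188 to 0.0603 for Cald1, -0.307 to 0.0965 for Pdlim7, -0.158 to 0.146 for Myl6, -0.146 to 0.217 for Myl9, -0.163 to 0.0468 for Myh9 and -0.367 to 0.0555 for Des. The cause of these turns was not tested.

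Numbers 4 and 8 occur in both genotypes, but nothing in the labels says that a number pairs mice, so the numbers were not taken to do so. Deviations of same-numbered aortas correlated at -0.049 and -0.45, and so few aortas cannot decide whether mice were paired. Groups of 3 mice and a table without counts limit what can be said of low genes such as Myocd.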
